A study of Mus musculus and Homo sapiens with 30 samples.

Results

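The cultures compared here were NMuMG cells, a line of mouse mammary gland epithelium, given either the secretome of obese inguinal adipocytes or their standard growth medium. The comparison takes the 6 NMuMG libraries that the labels assign to these 2 media, 3 of each, out of 30 libraries in the series. It covers the 15014 genes that passed a filter on low counts, out of 56980 gene IDs counted. The remaining libraries come from NMuMG cells given lean secretome, from E0771 mouse mammary cancer cells and from SkBr3 human breast cancer cells. All cells grew for 36 h before treatment. NMuMG growth medium was DMEM with insulin at 10 mcg/ml, glucose at 4.5 g/L and FBS at 10%. Obese or lean secretome made up 50% of the treatment medium, growth medium made up the rest, and the exposure lasted 16 h. Control cells received growth medium alone. The share of secretome, and with it the dilution of serum and insulin, therefore cannot be told apart from the obese origin of the adipocytes in this comparison. The labels do not give the species or diet of the adipocyte donors, and they list NMuMG, like the other lines, under breast cancer. Nothing in them says that replicates were separate cultures, so p-values measure the spread between these samples, which may be technical.

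Mammary epithelium grows into a pad of adipocytes, and these cells release fatty acids, oxylipins, adipokines and growth factors into their surroundings. Epidermal growth factor (EGF) family ligands act on ERBB receptors and, through the kinase ERK, switch on transcription factors such as the AP-1 dimers of FOS and JUN proteins. The same cascade induces phosphatases that shut ERK off again, so their mRNAs are widely read as its output. Bone morphogenetic proteins (BMPs) act through SMAD proteins and switch on the ID genes, which encode inhibitors of differentiation factors.

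The total count per library ranged from 23966897 to 29686456 over the 6 libraries. Epithelial keratins were abundant, with Krt8 at 3434 ± 101 (SD, n = 3) CPM in control cells, where CPM are reads scaled to the size of the library, and Cdh1, which encodes E-cadherin, was at 540.5 CPM on average. Of the other luminal markers on a list of 12, Krt18, Krt19, Krt7, Muc1 and Elf3 averaged 2515, 760.3, 107, 93.1 and 26.0 CPM in control cells. Epcam averaged 2.19 CPM and Cldn4 0.916 CPM there, and Cldn3, Cldn7 and Esrp1 had at most 1 read in any of the 6 libraries. Among adipocyte markers, there was no read of Plin1, Lep or Cfd and at most 1 read of Adipoq in any of the 6 libraries, while Pparg and Cebpa each averaged 19.6 CPM and Lipe 8.45 CPM in control cells. The 13 adipocyte markers together summed to between 45.95 and 51.07 CPM in control libraries and between 44.48 and 47.9 CPM in obese libraries, and of the 4 that were tested Cebpa was lower (-0.33, adjusted p = 0.00703), a call lost without control replicate 1. Obese replicate 1 stood apart from the other obese libraries on the first principal component, which held 44.5% of the variance over the 9 NMuMG libraries. It lay at -2.90, against -17.1 and -13.4 for obese replicates 2 and 3, between -19.5 and -18.6 for control and between 26.8 and 34.0 for lean secretome. Calls that were lost without it are named as such beside the gene or list.

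The obese secretome changed 752 of 15014 genes (5.01%) at an adjusted p under 0.05, in edgeR's quasi-likelihood test with Benjamini-Hochberg adjustment. Of these, 352 (2.34%) were higher and 400 (2.66%) were lower than in control medium. An unadjusted p under 0.05 was reached by 2489 genes (16.6%), and the 3 obese libraries lay entirely above or below the 3 control libraries for 3185 genes (21.2%). Most changes were small. Called genes had a median absolute change of 0.24 (log2), and an absolute change of 1 or more was seen in 22 genes, 5 upwards and 17 downwards. A median standard error of 0.071 on the log2 scale allowed calls down to an absolute log2 fold change of 0.095. Leaving out 1 library at a time gave between 384 and 893 called genes. The lowest number came without control replicate 1, and the numbers without control replicate 2, obese replicate 1 and obese replicate 3 were 465, 490 and 482.

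Among called genes that averaged a log2 CPM of 2 or more and whose groups did not overlap, the matrix-degrading enzymes Mmp10 and Mmp13 rose most. Mmp10 (ENSMUSG00000047562) encodes stromelysin-2 and Mmp13 (ENSMUSG00000050578) encodes collagenase-3, which cleaves fibrillar collagen. Since both genes rose and lie on chromosome 9, the 250 bases before each start site are shown, from RefSeq's GRCm38.p6 table, with matches to the AP-1 motif TGANTCA (either strand) in capitals.
Mmp10, chr9:7502092-7502341, plus strand: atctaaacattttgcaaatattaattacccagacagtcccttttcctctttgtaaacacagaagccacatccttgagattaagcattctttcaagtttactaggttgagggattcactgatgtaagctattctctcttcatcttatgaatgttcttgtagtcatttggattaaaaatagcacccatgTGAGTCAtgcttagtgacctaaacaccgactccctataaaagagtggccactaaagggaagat
Mmp13, chr9:7272264-7272513, plus strand: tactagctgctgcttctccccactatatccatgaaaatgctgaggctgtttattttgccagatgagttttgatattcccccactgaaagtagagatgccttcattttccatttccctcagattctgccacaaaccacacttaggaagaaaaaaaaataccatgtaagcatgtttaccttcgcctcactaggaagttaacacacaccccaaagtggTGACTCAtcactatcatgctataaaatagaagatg
Each window holds 1 match, whose first base lies 63 bases before the start of Mmp10 and 35 bases before that of Mmp13. The motif was found in 2217 of 32851 such windows (6.75%) and in at least 1 window of 7.82% of genes. Under the same limits on level and overlap, it was found among the 15 largest increases in 4 of the 13 genes with a window, which also included Btbd11 and Fbp2, and among the 15 largest decreases in 0 of 12. Of the other motifs searched on both strands, the antioxidant element TGACNNNGC was in 4 of the 13 and 3 of the 12 (11.5% of genes), the metal element TGCGCNC in 3 and 2 (14.0%) and the sterol element TCACNNCAC in 2 and 1 (3.63%). A match is a description of the letters, not evidence of binding.

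Mmp10 stood at 2.28, 2.56 and 2.92 CPM in control libraries and at 7.32, 4.93 and 7.10 CPM with obese secretome. All 3 obese libraries were above all control libraries, with replicate 2 the lowest of them. The change was 1.32 ± 0.15 in log2 units (SE, adjusted p = 2.83e-07). Mmp13 stood at 37.8, 34.2 and 37.3 CPM in control libraries and at 62.7, 65.7 and 66.3 CPM with obese secretome. Its obese libraries lay close together and far above control, with a log2 fold change of 0.83 ± 0.052 (adjusted p = 2.27e-13), and both genes were called in all 12 alternatives run for them. Metalloproteinases did not rise as a group. Of 16 tested members of a list of metalloproteinases and their inhibitors, these 2 were higher and 0 were lower. Of all genes tested, 2.34% were higher and 2.66% lower. The list's median log2 fold change was -0.18, against 0.00036 for all genes tested.

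**Figure D1:**
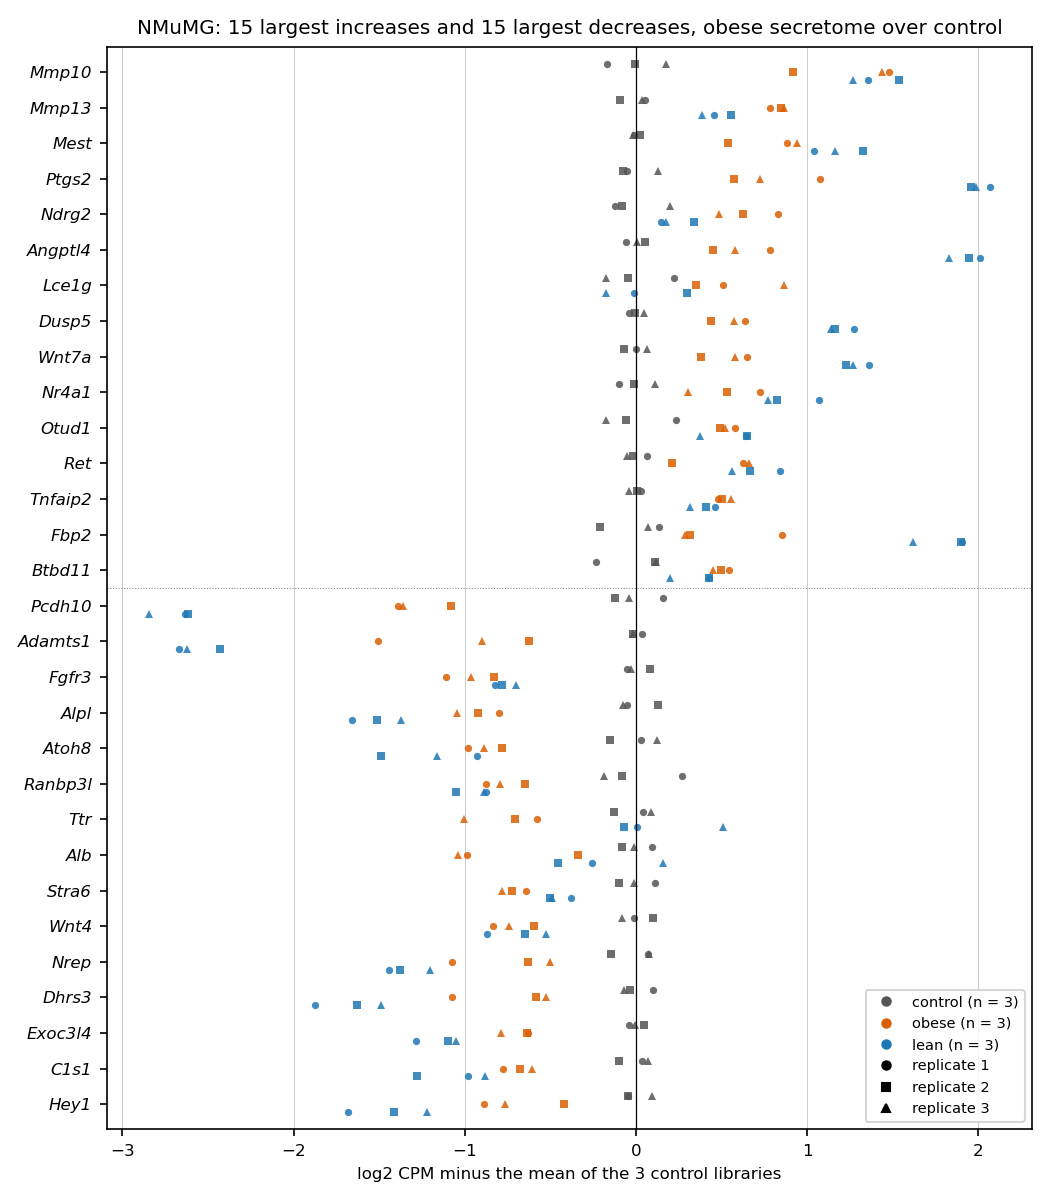
Each row is 1 of the 15 largest increases (upper block) or 15 largest decreases (lower block). The horizontal axis gives log2 CPM minus the mean of the 3 control libraries, with control in grey, obese secretome in orange and lean secretome in blue, and marker shapes for replicates 1 to 3. In every row the 3 orange points lie outside the range of the 3 grey points, as the rule for naming these genes required.

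Genes induced by ERK rose together. Of 25 tested genes on a list of ERK output and feedback, 12 were higher and 0 lower, 15 had obese libraries that did not overlap with control, and the median log2 fold change was 0.20. Over all genes tested, 2.34% were higher, 2.66% were lower and 21.2% did not overlap. Dusp5, which encodes a nuclear phosphatase of ERK, stood at 34.8, 35.7 and 37.1 CPM in control and at 55.9, 48.6 and 53.5 CPM with obese secretome. The obese values were all higher by more than the spread within either group, and its log2 fold change was 0.55 ± 0.053 (adjusted p = 1.07e-08). Dusp6, the cytoplasmic counterpart, rose by 0.34 ± 0.043 (adjusted p = 1.46e-06). The proto-oncogene Myc stood at 87.4, 92.7 and 87.5 CPM in control and at 114, 114 and 112 CPM with obese secretome, an increase of 0.34 ± 0.039 (adjusted p = 2.07e-07). Fosl1, which encodes the AP-1 subunit FRA1, stood at 72.8, 75.1 and 77.1 CPM against 115, 93.5 and 98.5 CPM, with replicate 1 the highest (0.45 ± 0.062, adjusted p = 0.000474). The count of higher members was between 10 and 13 when 1 library was left out, and 11 without obese replicate 1.

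Of 15 tested ERBB receptors, EGF family ligands and regulators, 5 were higher and 1 was lower, against 2.34% and 2.66% of all genes tested. The higher members were 4 ligand genes and a feedback inhibitor. The ligand amphiregulin, encoded by Areg, stood at 41.4, 42.7 and 43.8 CPM in control and at 65.0, 54.2 and 57.9 CPM with obese secretome, with no overlap (0.47 ± 0.053, adjusted p = 3.04e-07). Betacellulin (Btc, 0.46 ± 0.062) and epiregulin (Ereg, 0.43 ± 0.062) rose by similar amounts. Errfi1, which encodes a feedback inhibitor of the EGF receptor, rose by 0.24 ± 0.044. The receptor gene Egfr was the member that fell, from 99.6 ± 0.914 to 90.7 ± 1.65 CPM (SD, n = 3), a log2 fold change of -0.14 ± 0.038 (adjusted p = 0.0258). That call was lost without control replicate 1 or 3 and without obese replicate 1 or 3. Hbegf, the remaining ligand that was higher (0.15, adjusted p = 0.0272), lost its call without control replicate 1 or 2 and without obese replicate 1 or 3. Hbegf and Egfr fall outside the naming rule and were named after their values were seen.

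**Figure D2:**
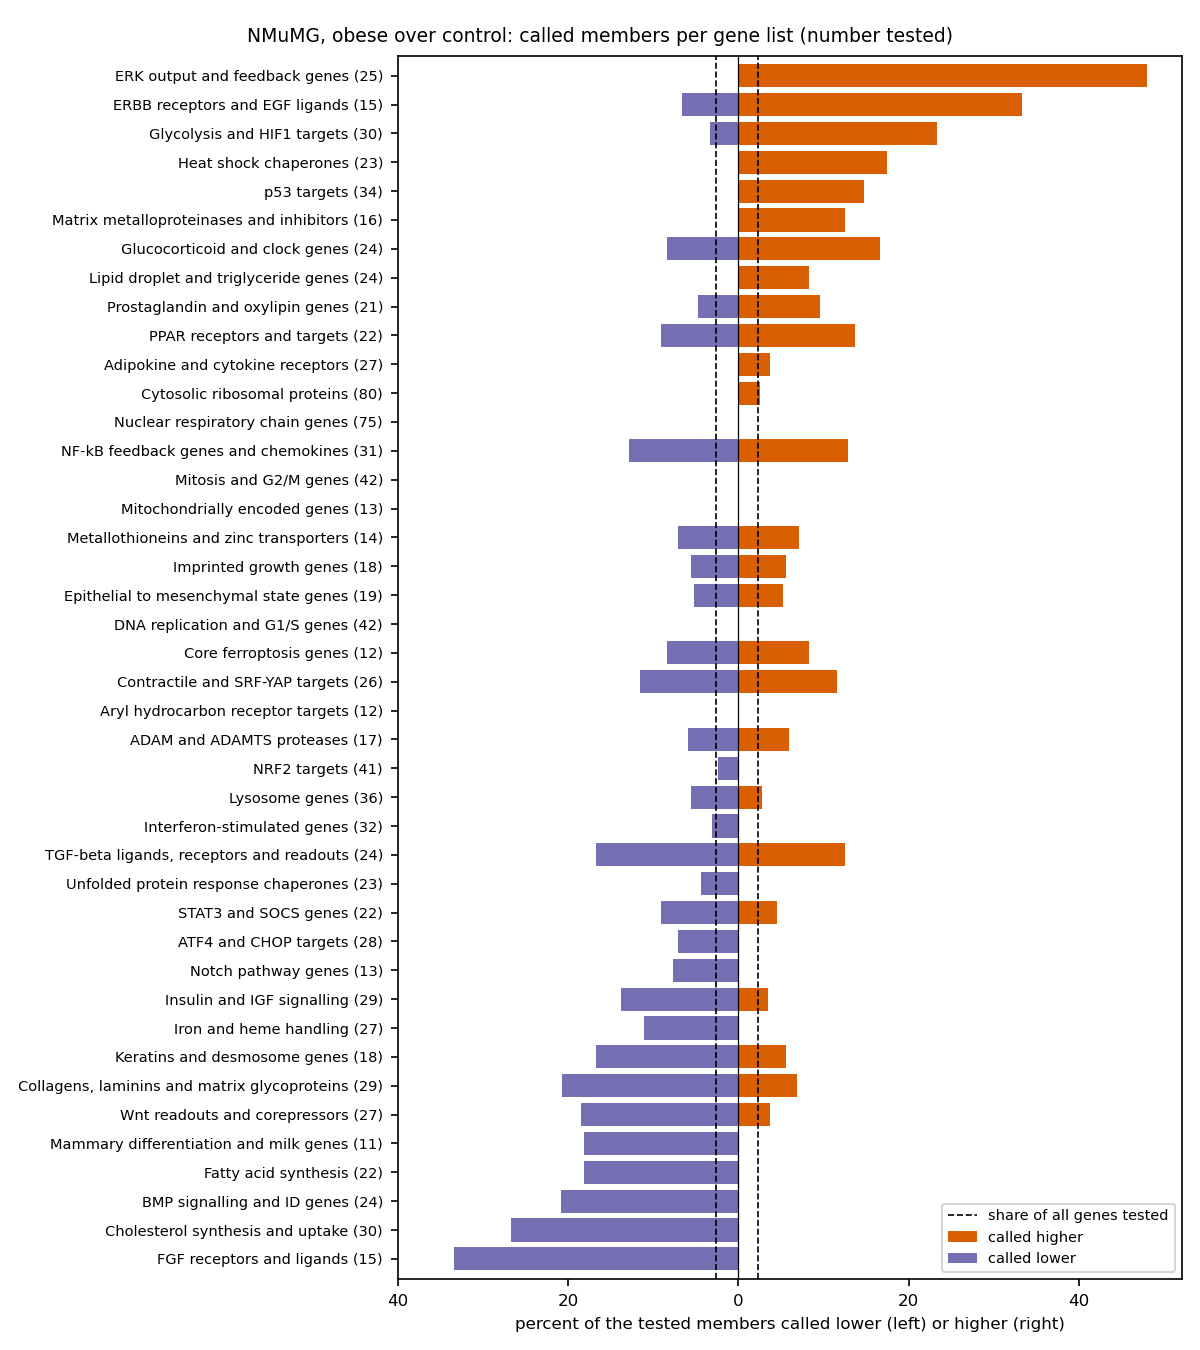
Bars give the percent of the tested members of each of 42 gene lists that were called higher (right) or lower (left) with obese secretome, with the number of tested members in parentheses. Dashed lines mark the shares over all 15014 genes, 2.34% higher and 2.66% lower. ERK output genes reach 48% higher and FGF genes reach 33.3% lower, and 5 lists have no bar in either direction.

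Other large increases came from unrelated families. Ptgs2, which encodes the prostaglandin-forming enzyme COX-2, stood at 33.0, 32.4 and 37.3 CPM in control and at 72.3, 50.9 and 56.5 CPM with obese secretome. Its obese libraries spread widely but all lay above control (0.80 ± 0.14, adjusted p = 0.0272). The call was lost with only the compared groups in the fit, without control replicate 1, 2 or 3, and without obese replicate 3, and the adjusted p ranged from 1.31e-09 to 0.113 over the alternatives. Angptl4, a secreted inhibitor of lipoprotein lipase and a target of PPAR receptors, stood at 9.67, 10.5 and 10.1 CPM against 17.4, 13.8 and 15.1 CPM (0.61 ± 0.085, adjusted p = 7.17e-06). Wnt7a, a Wnt ligand, rose by 0.54 ± 0.082 (adjusted p = 3.43e-05), and Cxcl1, a chemokine that attracts neutrophils, by 0.49 ± 0.072 (adjusted p = 3.18e-05). Tnfaip2, first known as a gene induced by tumour necrosis factor, stood at 53.9, 53.1 and 51.3 CPM against 73.6, 74.7 and 77.5 CPM, a narrow spread on both sides (0.51 ± 0.046, adjusted p = 1.84e-09). The imprinted gene Mest rose by 0.81 ± 0.13, from 3.43, 3.52 and 3.41 CPM to 6.43, 5.05 and 6.69 CPM. Its exons overlap those of Copg2 on the opposite strand, and the strand setting of the counting is not given in the sources used here. Copg2 was at 72.4 CPM in control and its own change was -0.054 (adjusted p = 0.616). The increases of Lce1g, Otud1, Ret, Fbp2 and Btbd11 each lost their call when at least 1 library was left out, with adjusted p up to 0.376 for Fbp2, the 1 of these 5 that was lost without obese replicate 1.

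The genes of fibroblast growth factor (FGF) receptors 2 and 3 fell. Of 15 tested FGF receptors, ligands and co-receptors, 0 were higher and 5 were lower, against 2.34% and 2.66% of all genes tested. Fgfr3 (ENSMUSG00000054252) stood at 43.0, 47.1 and 43.8 CPM in control and at 20.7, 25.1 and 22.8 CPM with obese secretome. Every obese value was well below every control value, and the log2 fold change of -0.96 ± 0.063 (adjusted p = 4.66e-13) had the smallest adjusted p of all named decreases. Fgfr2 fell by 0.33 on the log2 scale, from 77.5, 77.3 and 74.4 CPM to 57.1, 62.5 and 62.1 CPM (adjusted p = 6.98e-06). Its exons overlap those of Ctbp2 on the same strand, and Ctbp2 had a log2 fold change of 0.024 (adjusted p = 0.822). The ligand gene Fgf18 was lower by a narrower margin (-0.62 ± 0.19, adjusted p = 0.0489). Its call was lost in 7 of 12 alternatives, DESeq2, the replicate block and the fits without any 1 of the 3 control libraries or without obese replicate 1 or 2, with adjusted p from 0.0158 to 0.229. Between 2 and 4 members of the list were lower when 1 library was left out, 4 of them without obese replicate 1 and 2 without obese replicate 2.

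BMP readouts fell as well. Of 24 tested genes on a list of BMP signalling and ID genes, 0 were higher and 5 were lower, with a median log2 fold change of -0.063. Over all genes tested, 2.34% were higher and 2.66% lower. Id3 stood at 32.5, 33.7 and 31.7 CPM in control and at 18.9, 23.3 and 22.7 CPM with obese secretome, with no overlap (-0.59 ± 0.067, adjusted p = 2.32e-07). Id1 fell from 109, 112 and 103 CPM to 82.3, 88.0 and 95.5 CPM (-0.28 ± 0.052, adjusted p = 0.00145). Id2, which lies outside the naming rule, was lower by a smaller amount (-0.20 ± 0.049, adjusted p = 0.0272), and the call was lost without control replicate 1, 2 or 3 and with only the compared groups in the fit. Smad6, which encodes an inhibitory SMAD induced by BMP, fell by 0.28 on the log2 scale (adjusted p = 0.0133). Alpl, which encodes tissue-nonspecific alkaline phosphatase, stood at 11.3, 12.8 and 11.1 CPM against 6.69, 6.13 and 5.62 CPM (-0.93 ± 0.11, adjusted p = 2.11e-07). The BMP ligands and receptors on the list were not called. Between 3 and 5 members were lower when 1 library was left out, and Smad6 lost its call without control replicate 1 or 2 and without obese replicate 1 or 3.

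**Figure D3:**
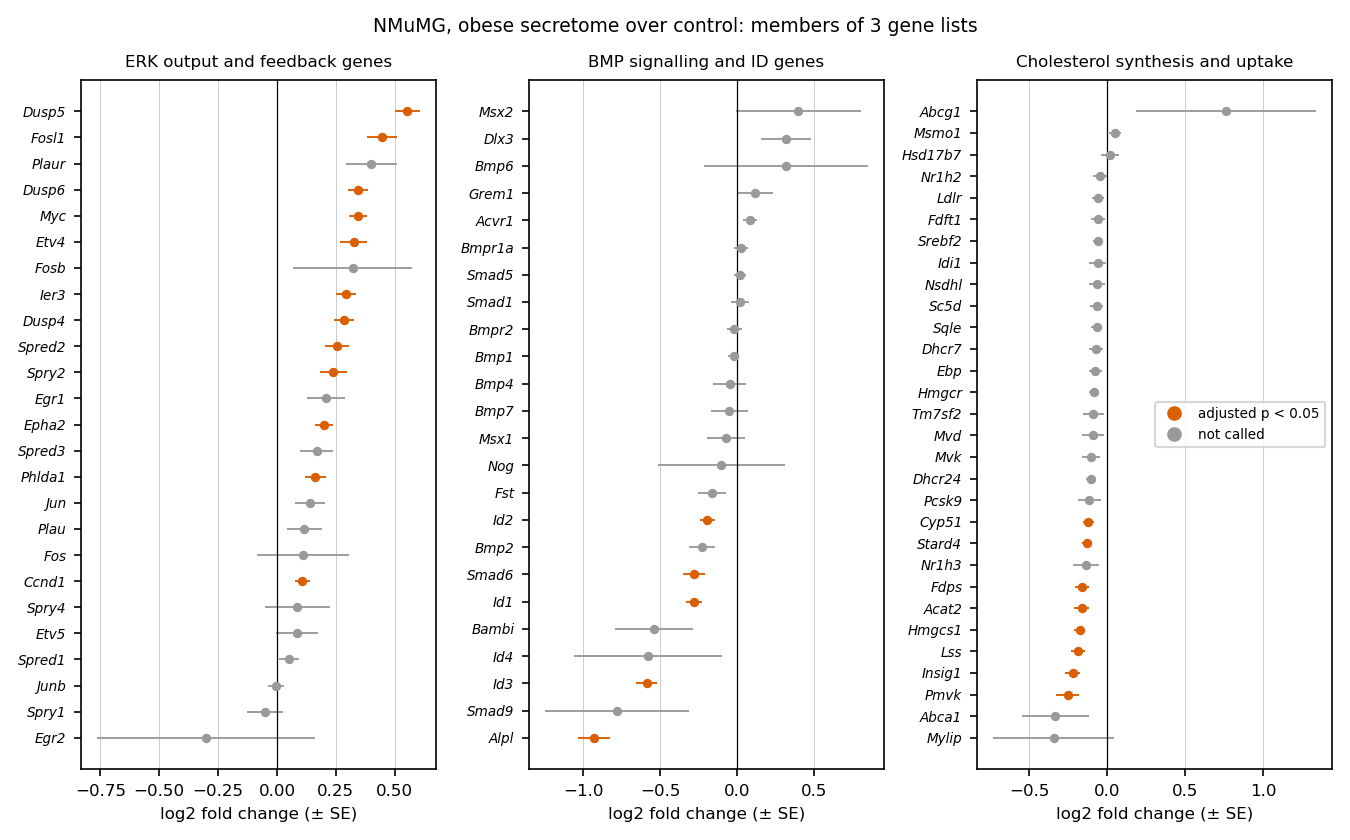
Points give the log2 fold change of obese secretome over control, with bars of 1 standard error, for every tested member of the ERK, BMP and cholesterol lists. Orange points were called at an adjusted p under 0.05, and grey points were not. All 12 orange points of the ERK panel lie right of 0, and all 5 of the BMP panel and all 8 of the cholesterol panel lie left of it.

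Among called genes with a log2 CPM of 2 or more on average and groups that did not overlap, the largest decrease was in Pcdh10 (ENSMUSG00000049100), which encodes a protocadherin, a cell adhesion protein. It stood at 8.33, 6.84 and 7.26 CPM in control and at 2.79, 3.48 and 2.85 CPM with obese secretome, and the groups were far apart (-1.30 ± 0.14, adjusted p = 7.90e-08). Adamts1, a secreted protease that cleaves versican and aggrecan, stood at 46.9, 45.3 and 45.4 CPM against 16.1, 29.7 and 24.5 CPM. Its obese libraries ranged widely, so the adjusted p was 0.0436 beside a log2 fold change of -0.97 ± 0.19. That call was lost in 7 of 12 alternatives, without control replicate 1, 2 or 3 and without obese replicate 3 among them, with adjusted p from 6.32e-10 to 0.152.

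Further decreases are given singly. All but Cyp2s1 belong to no list. Stra6, which encodes the receptor for retinol-binding protein, stood at 11.1, 9.55 and 10.1 CPM in control and at 6.52, 6.17 and 5.93 CPM with obese secretome (-0.73 ± 0.10, adjusted p = 8.40e-06). Dhrs3, which encodes an enzyme that reduces retinaldehyde to retinol, stood at 10.9, 9.93 and 9.67 CPM against 4.78, 6.75 and 7.03 CPM (-0.71 ± 0.12, adjusted p = 0.000158). Groups did not overlap for either gene, and replicate 1 was the lowest obese library for Dhrs3. Dio3, which encodes the deiodinase that inactivates thyroid hormone, fell by 0.64 on the log2 scale, from 28.6, 29.7 and 29.3 CPM to 17.3, 19.5 and 19.3 CPM (adjusted p = 1.33e-07). Ttr, which encodes the carrier transthyretin, fell from 5.88, 5.23 and 6.08 CPM to 3.81, 3.48 and 2.81 CPM (-0.77 ± 0.15, adjusted p = 0.00143). Alb, which encodes albumin, was lower by a like amount (-0.77 ± 0.17, adjusted p = 0.00673) and lost its call without control replicate 1 or obese replicate 3. Cyp2s1, a cytochrome P450 that metabolises retinoic acid and oxylipins, was the 1 lower member of 21 tested prostaglandin and oxylipin genes, and 2 were higher. Over all genes tested, 2.66% were lower and 2.34% higher. Cyp2s1 fell from 42.4, 41.9 and 40.5 CPM to 29.4, 28.5 and 27.3 CPM (-0.55 ± 0.057, adjusted p = 4.22e-08). Both of its groups were tight and the gap between them was wide.

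Wnt4, a Wnt ligand of the mammary gland, stood at 16.1, 17.4 and 15.4 CPM in control and at 9.10, 10.8 and 9.72 CPM with obese secretome (-0.72 ± 0.091, adjusted p = 1.41e-06). Of 27 tested Wnt readouts, ligands and corepressors, 1 was higher (Wnt7a, above) and 5 were lower, among them Tle2 (-0.43 ± 0.095), whose call was lost without control replicate 1 or 2, and Ccn4 (-0.24 ± 0.050). Shares over all genes tested were 2.34% higher and 2.66% lower. The count of lower members was 3 without control replicate 1 and 4 without obese replicate 1. Hey1, a transcriptional repressor downstream of Notch and BMP, was the 1 called member of 13 tested Notch pathway genes (-0.69 ± 0.13, adjusted p = 0.000806). Atoh8, a basic helix-loop-helix factor, fell from 6.31, 5.54 and 6.72 CPM to 3.09, 3.56 and 3.31 CPM (-0.90 ± 0.14, adjusted p = 7.01e-05). Spns2, which exports sphingosine-1-phosphate, stood at 193, 200 and 182 CPM against 136, 144 and 134 CPM, a clear gap (-0.47 ± 0.040, adjusted p = 6.06e-10). Its exons overlap Mybbp1a on the opposite strand, which itself rose by 0.17 (adjusted p = 0.000806).

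Genes of cholesterol synthesis were lower by small amounts. Of 30 tested genes of cholesterol synthesis and uptake, 0 were higher and 8 were lower, 17 had obese libraries that did not overlap with control, 3 had a log2 fold change above 0, and the median was -0.090. Over all genes tested, 2.34% were higher, 2.66% were lower and 21.2% did not overlap. Hmgcs1, which encodes the enzyme that makes HMG-CoA for this pathway, stood at 217, 216 and 216 CPM in control and at 193, 194 and 188 CPM with obese secretome. Although the change was only -0.18 ± 0.035, the groups were clearly apart (adjusted p = 0.00148). Its promoter is shown because the transcription factor SREBP acts through sterol elements in genes of this pathway; capitals mark the match to TCACNNCAC (either strand), present in 1023 of 32851 windows (3.11%).
Hmgcs1, chr13:119690101-119690350, plus strand: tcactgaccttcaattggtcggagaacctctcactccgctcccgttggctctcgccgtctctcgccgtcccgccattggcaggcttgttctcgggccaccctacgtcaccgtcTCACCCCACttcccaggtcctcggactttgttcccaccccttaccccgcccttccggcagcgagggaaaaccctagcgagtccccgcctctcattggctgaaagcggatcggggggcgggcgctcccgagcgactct
The match begins 137 bases before the start site. Matches in the other genes of this list are not given here. A match is not evidence of binding, and a role of SREBP in these changes was not tested. Insig1, a sterol sensor that retains SREBP in the endoplasmic reticulum, fell by 0.22 (adjusted p = 0.00483), Lss, the lanosterol synthase, by 0.19 (adjusted p = 0.0112) and Pmvk, a mevalonate pathway kinase, by 0.25 (adjusted p = 0.0353), all on the log2 scale. Pmvk lost its call in DESeq2 and without any 1 of the 6 libraries, and Lss without control replicate 2 or obese replicate 3. Leaving out 1 library left between 2 and 5 members lower, 4 without obese replicate 1 and 2 without obese replicate 3, and DESeq2 called 5. Of 22 tested fatty acid synthesis genes, 0 were higher and 4 were lower. The desaturase gene Scd1 fell from 59.6, 61.8 and 57.6 CPM to 47.2, 50.4 and 45.4 CPM (-0.32 ± 0.051, adjusted p = 5.66e-05), and Scd2 fell by 0.16 (adjusted p = 0.00115).

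Matrix and contractile genes split in both directions. Among 29 tested collagens, laminins and matrix glycoproteins, 2 were higher and 6 lower, against 2.34% and 2.66% of all genes tested. The collagen genes Col12a1, Col6a2 and Col6a1 were lower by 0.46, 0.42 and 0.32 on the log2 scale. Col12a1 lost its call without obese replicate 1 and with the replicate block, Col6a1 without control replicate 2, and both Col6a1 and Col6a2 with only the compared groups in the fit. The count of lower members was 4 without control replicate 1, 3 without control replicate 2 and 5 without obese replicate 1. Acta2, the smooth muscle actin gene of myoepithelial cells, stood at 18.3, 18.2 and 17.8 CPM in control and at 10.5, 11.4 and 12.3 CPM with obese secretome, with no overlap (-0.67 ± 0.082, adjusted p = 9.49e-07). Of the 26 tested contractile genes and SRF or YAP targets, 3 were higher and 3 lower, which became 1 and 1 without control replicate 1 or obese replicate 1, and 6 and 3 without obese replicate 2. Of 11 basal and myoepithelial markers, 5 were tested, and Acta2, Tagln and Mylk were lower. Tagln lost its call without control replicate 1 or obese replicate 1, and its exons overlap Pcsk7 on the opposite strand, which had a log2 fold change of -0.059 (adjusted p = 0.589). Krt17 had no read, and Krt5, which was not called (adjusted p = 0.307), averaged 0.226 CPM in control, 0.483 CPM with obese and 5.97 CPM with lean secretome. The 11 markers summed to between 80.52 and 82.51 CPM in control libraries and between 60.46 and 65.97 CPM in obese libraries. Of 9 tested luminal markers 3 were also lower, Cdh1 (-0.17, adjusted p = 0.000577), Krt19 (-0.14, adjusted p = 0.0136) and Muc1 (-0.28, adjusted p = 0.00242), and Krt19 lost its call without control replicate 2 and without obese replicate 1 or 3. The 12 luminal markers summed to between 7290 and 7734 CPM in control and between 6960 and 7319 CPM in obese libraries. In bulk RNA, fewer cells of a type and less RNA per cell cannot be told apart. In the TGF-beta list 3 of 24 genes were higher and 4 lower, with the ligand genes Tgfb2 (-0.32) and Tgfb3 (-0.33), the receptor gene Tgfbr1 (-0.30) and Ltbp2 (-0.41), which encodes a latent TGF-beta binding family protein, as the latter. Tgfb2 lost its call in 6 of 12 alternatives and Tgfb3 in 5, both of them without obese replicate 1, while Tgfbr1 and Ltbp2 were called in all 12. Leaving out 1 library left 1 to 3 members higher and 2 to 3 lower, and 2 and 2 without obese replicate 1.

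Inflammatory and stress lists showed smaller or mixed shifts. Their counts stand beside 2.34% higher and 2.66% lower over all genes tested. Of 31 tested NF-kB feedback genes and chemokines, 4 were higher and 4 lower, with Tnfaip2, Cxcl1 and the cytokine gene Lif (0.28 ± 0.051) on 1 side and complement C3 (-0.48 ± 0.071, adjusted p = 2.47e-05) on the other. The lower count was between 1 and 6 when 1 library was left out, lowest without control replicate 2 and highest without obese replicate 2, and 3 without obese replicate 1. Interferon-stimulated genes gave 0 higher and 1 lower of 32 (3.125% lower, near the share over all genes). The list's median log2 fold change was -0.16, against 0.00036 for all genes tested, and 7 of the 32 were above 0. An unadjusted p under 0.05 was reached by 9 of them, against 16.6% of all genes tested. The count of lower members was 0 in DESeq2 and in each fit that left out 1 library other than obese replicate 1. Glycolysis and HIF1 targets gave 7 higher and 1 lower of 30, led by the oxygen sensor Egln3 (0.43 ± 0.068, adjusted p = 0.000474) and including the glucose transporter Slc2a1 (0.23 ± 0.045, adjusted p = 0.00121). The higher count was between 3 and 6 when 1 library was left out, and 4 without obese replicate 1. Of 34 tested p53 targets, 5 were higher and 0 lower, and the count of higher members was 0 without control replicate 1 or obese replicate 1 and 8 without obese replicate 2. Heat shock chaperones gave 4 higher and 0 lower of 23, among them Hsp90aa1 (0.21 ± 0.030, adjusted p = 1.39e-05), and 2 higher without obese replicate 1. In iron and heme handling, 3 of 27 were lower, led by transferrin receptor 2 (Tfr2, -0.62 ± 0.070, adjusted p = 1.46e-06), which senses iron-loaded transferrin. None of 42 DNA replication genes, 42 mitosis genes, 75 nuclear respiratory chain genes, 13 mitochondrially encoded genes or 12 aryl hydrocarbon receptor targets was called in edgeR's test or by DESeq2. An unadjusted p under 0.05 was reached by 7, 2, 3, 0 and 3 of them, against 16.6% of all genes tested.

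Genes controlled by NRF2, the transcription factor of the antioxidant response, were higher mainly in obese replicate 1. Of 41 tested NRF2 targets, 35 had a log2 fold change above 0 and the median was 0.25, but 0 were called higher and 1 was lower, Osgin1 (-0.14, adjusted p = 0.0245). An unadjusted p under 0.05 was reached by 21 of them, against 16.6% of all genes tested. Obese replicate 1 was the highest obese library for 39 of the 41, against 35.9% of all genes tested. The median over the list of log2 CPM relative to the control mean was 0.59 in obese replicate 1, 0.071 in replicate 2 and 0.18 in replicate 3, and 1.24, 1.163 and 1.40 in lean replicates 1 to 3. Relative to all control libraries, 37, 22 and 26 of the 41 genes were higher in obese replicates 1, 2 and 3, against 31.7%, 28.4% and 29.3% of all genes tested. Without obese replicate 1, 10 members were called higher and 1 lower, and the median was 0.12. The lower member was then Me1 (-0.15, adjusted p = 0.0199), and Osgin1 was not called (adjusted p = 0.124). Without obese replicate 2, 7 were called higher. DESeq2 on all libraries called 12 higher and 1 lower, and the fit with the replicate block called 3 higher.

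Single members show the same spread. The glutathione transferase gene Gsta1 stood at 2.52, 3.44 and 3.45 CPM in control and at 66.4, 7.496 and 11.6 CPM with obese secretome (3.17 ± 1.09, adjusted p = 0.204). Gsta1 has near-identical family members, so its counts are uncertain. Akr1b8, an aldehyde reductase gene, stood at 120, 115 and 109 CPM against 246, 142 and 164 CPM (0.68 ± 0.20, adjusted p = 0.142). Both genes had all obese libraries above control, with replicate 1 far above the rest, and both were named after their values were seen. Without obese replicate 1, Akr1b8 was higher by 0.42 ± 0.048 (adjusted p = 9.96e-07) and Gsta1 by 1.62 ± 0.21 (adjusted p = 0.00479).

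**Figure D4:**
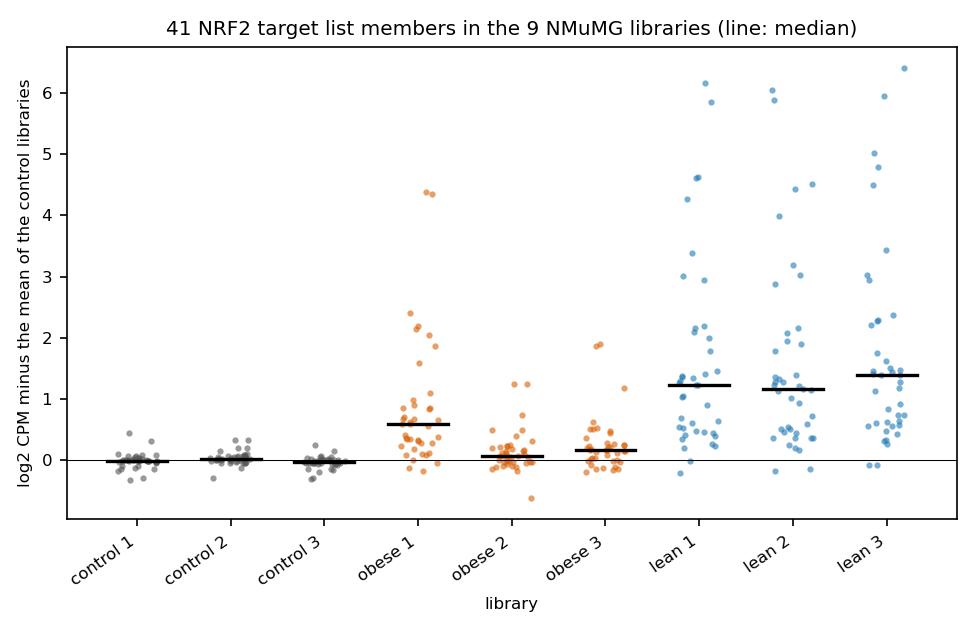
Each point is 1 of 41 NRF2 targets in 1 NMuMG library, as log2 CPM minus the control mean, and the black line is the median of the library. The median of obese replicate 1 is 0.59, between the 0.071 and 0.18 of the other obese libraries and the 1.163 to 1.40 of the lean libraries.

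Iron-dependent death through lipid peroxidation, called ferroptosis, is the subject of the series title, so 12 core genes were followed. Ptgs2, a common ferroptosis marker, was higher and Scd1 was lower, both described above, and the other 10 were not called. Over all genes tested, 2.34% were higher and 2.66% lower. Groups did not overlap for 9 of the 12, against 21.2% of all genes tested. An unadjusted p under 0.05 was reached by 8, against 16.6%. Some alternatives called further members: Fth1 higher without obese replicate 1, Tfrc higher with no filter and without obese replicate 2, and Chac1 lower in 3 of 12. Slc7a11, the cystine importer that supplies glutathione synthesis, stood at 11.7, 12.9 and 13.0 CPM in control and at 57.3, 21.1 and 28.5 CPM with obese secretome. All obese libraries were above control but ranged more widely among themselves than the gap to control (1.501 ± 0.40, adjusted p = 0.113), and the gene was called by DESeq2, without obese replicate 1 and without obese replicate 2. Hmox1, the heme oxygenase gene, stood at 53.4, 54.6 and 54.4 CPM against 107, 63.5 and 78.02 CPM (0.61 ± 0.21, adjusted p = 0.204). Of the 12 alternatives, only DESeq2 called Hmox1 (adjusted p = 0.0487). Gpx4, which encodes the enzyme that reduces lipid peroxides, stood at 300.2, 297 and 296 CPM against 310, 290.4 and 301 CPM, overlapping groups with a difference of 0.013 ± 0.033 on the log2 scale. Acsl4, which primes polyunsaturated fatty acids for membranes, also overlapped (-0.051 ± 0.039, adjusted p = 0.564).

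Lean secretome was applied at the same share of medium, which gives a matched comparison for the named genes, although it uses the same obese libraries. For 10 of the 15 largest increases the lean mean was at or above the obese mean. For 10 of the 15 largest decreases it was at or below the obese mean. Lean means also lay further from control than obese means for Ptgs2 (137 CPM), Angptl4 (38.7), Slc7a11 (127.5), Hmox1 (227), Acta2 (3.66), Id3 (17.9), Hmgcs1 (170) and Scd1 (40.6). For Mmp13, Ttr and Fgfr3 they did not. Between obese and lean secretome, 5261 of 15014 genes (35%) were called, 2615 higher (17.4%) and 2646 lower (17.6%) with obese secretome. Mmp13 was higher with obese than with lean secretome (log2 fold change 0.36, adjusted p = 5.13e-07), where the lean libraries averaged 50.4 CPM. Mmp10 did not differ detectably (-0.090 ± 0.13, adjusted p = 0.637). Dusp5, Areg and Myc were lower with obese than with lean secretome by 0.64, 0.55 and 0.34 on the log2 scale, with lean means of 82.2, 86.0 and 144 CPM. For Ttr, the lean mean of 6.46 CPM was near the control level, and the gene was lower with obese than lean secretome by 0.94 (adjusted p = 8.06e-06). Pcdh10 averaged 1.09 CPM and Adamts1 7.66 CPM with lean secretome, and both were higher with obese than with lean secretome (1.48 and 1.62, adjusted p = 1.38e-07 and 0.00223). Fgfr3 was lower with obese than lean secretome by 0.19 (adjusted p = 0.0219), a call lost without obese replicate 1 or 3. Spns2 did not pass the test between secretomes (0.093, adjusted p = 0.0715).

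E0771 cells received the same treatments in a medium for which no insulin or glucose amount is given. Line and medium recipe therefore cannot be told apart in a contrast between them. The difference between the obese effects of the lines was called for 279 of 16529 genes (1.69%), 103 more positive in NMuMG (0.623%) and 176 more negative (1.06%). The leading increases could not be compared, since Mmp10 and Mmp13 averaged 0.119 and 0.0255 CPM in E0771 control cells. ERK phosphatase genes were among those that differed. Dusp5 in E0771 averaged 14.5 ± 0.408 CPM in control and 12.7 ± 1.08 CPM with obese secretome (SD, n = 3), and the difference from NMuMG was 0.74 ± 0.10 on the log2 scale (adjusted p = 2.76e-05). Dusp6 (0.53 ± 0.088, adjusted p = 0.000433) and Myc (0.34 ± 0.059, adjusted p = 0.000895) also differed between lines. Fosl1 (0.39 ± 0.14, adjusted p = 0.229), Ereg (0.49 ± 0.15, adjusted p = 0.106) and Errfi1 (0.21 ± 0.083, adjusted p = 0.215) were not called as different. Nor were Areg (adjusted p = 0.721) and Btc (adjusted p = 0.806), at 0.905 and 0.743 CPM in E0771 control. In E0771 they changed by 0.72 ± 0.22 (adjusted p = 0.0609) and 0.71 ± 0.27 (adjusted p = 0.164), neither called. Among BMP readouts, Id3 averaged 63.1 ± 1.95 CPM in E0771 control and 62.1 ± 4.45 CPM with obese secretome, a difference from NMuMG of -0.56 ± 0.087 (adjusted p = 0.000131). Alpl (-0.79 ± 0.17) and Id1 (-0.38 ± 0.074) differed as well. Angptl4 and Ctsl, the gene of a lysosomal protease, were not called as different between lines. In E0771 alone, 501 of 16529 genes (3.03%) were called for obese secretome over control. Ctsl rose in NMuMG (0.34 ± 0.034, adjusted p = 2.43e-08) and in E0771 (0.23 ± 0.040, adjusted p = 0.000564).

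**Figure D5:**
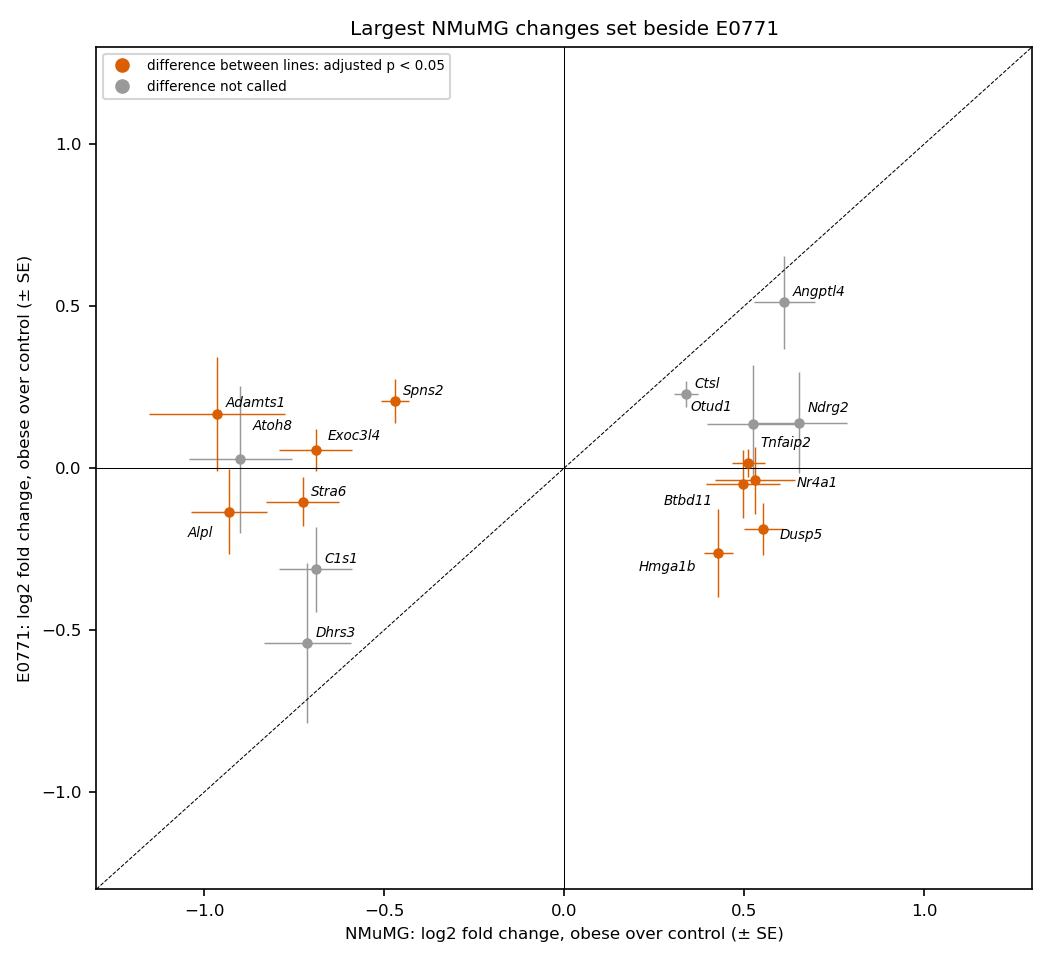
Points give log2 fold changes of obese secretome over control with bars of 1 standard error, in NMuMG (horizontal) and E0771 (vertical), for the 17 of 35 strongest NMuMG genes that averaged at least 1 CPM in both E0771 groups. Orange marks the 10 genes whose effects differed between the lines at an adjusted p under 0.05. These lie near 0 on the vertical axis or on the other side of it, and Angptl4, Ctsl and Dhrs3 lie nearest to the dashed line of equal effects.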

How the data were processed

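Poly(A) RNA was sequenced from directional libraries on a NovaSeq with 150 bp paired reads, per the labels' protocols. The authors deposited raw counts per Ensembl gene ID. The submitters' processing notes list cutadapt 1.16, STAR 2.7.9a, featureCounts 1.6.3 and build GRCm39, without roles, and the strand setting is not given in the sources used here. Symbols came from a GENCODE M21 table, used for names only, which matched 52073 of 56980 IDs. Promoter windows came from RefSeq on GRCm38.p6, without chromosome 18.

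The counts of all 9 NMuMG libraries were fitted together in edgeR 4.0.16 (R 4.3.3) with filterByExpr, TMM and the robust quasi-likelihood test, with Benjamini-Hochberg adjustment over all genes tested and a threshold of 0.05. The contrast between lines used all 18 mouse libraries. Log2 CPM used a prior count of 2. Alternatives were DESeq2 1.42.0, its size factors in edgeR, other filters, the compared groups alone, a replicate block and each library left out. Replicates differed by more than counting error, with a chi-square per degree of freedom from 2.51 to 5.38 within control and obese groups. Reads had no molecular identifiers.

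Same-numbered control and obese libraries had deviations from their group means that correlated between -0.028 and -0.015 across genes, so numbers were not taken as pairs. In counts simulated on these libraries with 200 changed genes, the test recovered 67% at 1.25-fold, 81% at 1.5-fold and 89.5% at 2-fold, and 5.29% to 6.36% of calls were false. The simulated spread followed only the trend with expression level, and no library was set apart. These rates therefore do not cover genes whose obese libraries ranged widely, such as Slc7a11.

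Genes were named by a rule: of called genes whose groups did not overlap and whose log2 CPM averaged 2 or more, the 15 that rose most and the 15 that fell most, up to 4 called members of each of 42 gene lists with the largest changes, 12 core ferroptosis genes, the 5 largest differences from E0771 in each direction and the 5 smallest adjusted p in each direction. Of the genes named by this rule, 2 are not reported here. Of the genes on the lists, 48 of 1205 are on more than 1 list. Members and lists were chosen with earlier results of these data known.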

Additional observations from a re-analysis of the deposited data

Results flagged for a closer look

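For 33 named genes reported here the effect of obese secretome differed between NMuMG and E0771 cells in the test of that difference at an adjusted p under 0.05 (edgeR, 18 libraries). Values are the NMuMG minus the E0771 log2 fold change. Most of the genes were named for their change in NMuMG, so a difference of the same sign is not independent of the choice.

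The 10 named for the size of this difference rest mostly on genes that E0771 scarcely expressed. The estimates were -4.79 for Serpinb6b, -4.79 for Abhd6, 4.76 for Inpp4b and 3.24 for Podxl. E0771 control libraries had 0, 0 and 0 reads of Serpinb6b and of Abhd6, E0771 obese libraries had 0, 0 and 0 reads of Inpp4b, and obese libraries had 1, 1 and 0 reads of Podxl. These fitted values depend on the prior count and are not bounds. Muc1 (-2.12) had 6, 2 and 1 reads in E0771 control and 15, 12 and 7 with obese secretome, and Lamb1 (1.45) had 14, 14 and 16 against 1, 13 and 5. Better counted were Adamts1 (-1.13), Ddb2 (-1), Hpcal1 (0.92) and Atg9b (0.91). Of these 10, the difference was no longer called in 4 of 9 alternatives for Adamts1, 5 for Ddb2, 3 for Lamb1, 3 for Inpp4b and 2 for Serpinb6b, each time without 1 NMuMG library. Obese replicate 1 was among those libraries for Lamb1, Inpp4b and Serpinb6b. Some of the 10 were not called in NMuMG itself for obese over control. These were Ddb2 (-0.045, adjusted p = 0.856), Hpcal1 (0.020, adjusted p = 0.882), Abhd6 (0.11, adjusted p = 0.509), Inpp4b (0.11, adjusted p = 0.346) and Podxl (0.18, adjusted p = 0.110). Podxl was called in 4 of 12 alternatives. In E0771, Ddb2 changed by 0.95 (adjusted p = 0.0201) and Hpcal1 by -0.90 (adjusted p = 0.00221).

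Among genes that were higher in NMuMG, the difference was 0.74 for Dusp5, 0.69 for Hmga1b, 0.57 for Nr4a1, 0.55 for Btbd11, 0.53 for Dusp6, 0.50 for Tnfaip2, 0.34 for Myc, 0.33 for Sulf2 and 0.18 for Vim. Hmga1b is a near-identical copy of Hmga1, so its counts are uncertain. Among genes that were lower in NMuMG, it was -0.79 for Alpl, -0.74 for Exoc3l4, -0.72 for Tfr2, -0.68 for Spns2, -0.62 for Stra6, -0.57 for Acta2, -0.56 for Id3, -0.51 for Atp6v0d1, -0.51 for Slc39a10, -0.46 for Ndrg1, -0.38 for Id1, -0.34 for Eif2ak3, -0.26 for Stat3 and -0.23 for Clu. Of these 23, Nr4a1, Btbd11, Sulf2, Vim, Clu, Eif2ak3 and Stat3 lost the call of this difference in at least 1 of 9 alternatives, without obese replicate 1 for all but Eif2ak3, and 0 changed sign. The separate NMuMG call of obese over control was lost without obese replicate 1 for Sulf2, Vim, Clu, Atp6v0d1 and Eif2ak3, and for Atg9b above.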

How the results depend on the processing

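The number of called genes was between 680 and 882 under other size factors, filters, DESeq2 and a fit of the compared groups alone, against 752. With a replicate block it was 722, and 688 of those were among the 752. The control and obese numbers did not pair the libraries. Leaving out 1 library gave 384 to 893 called genes, 161 to 467 higher and 223 to 426 lower. Requiring an absolute log2 fold change of at least 1 left 22 (5 higher, 17 lower). For the difference from E0771, the count of 279 became 428 (185 positive) with no filter and 422 with DESeq2 (156 positive, 266 negative), and 154 to 230 when 1 NMuMG library was left out (59 to 99 positive, 90 to 131 negative). Over the named genes and alternatives, 1530 values for obese over control kept direction and side of the threshold, 191 lost the call, 14 gained it and 5 changed sign. Without 1 library at a time, the last were Ddb2 (from -0.094 to 0.011), Gpx4 (-0.0081 to 0.035) and Aifm2 (-0.060 to 0.088), where Aifm2 was below 0 without control replicate 2 (-0.011), obese replicate 2 and obese replicate 3 (-0.0042). Against lean secretome, Mmp10 (-0.19 to 0.068) and Wnt4 (-0.11 to 0.012) changed sign. None of these 7 was called in the main or the changed setting, and the cause was not tested. Genes listed near 0 reads are limited by depth, and other precision by 3 libraries a group.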
